A study of Mus musculus with 6 samples.

Results

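Transcripts of 34 genes of glycolysis and the hypoxia response were followed through 6 RNA sequencing libraries of mouse hepatic stellate cells. The genes were chosen by name, as glucose and lactate transporters, glycolytic enzymes, the hypoxia-inducible factor HIF-1 alpha with its oxygen sensors, and known HIF targets. All 34 symbols were among the 24346 listed in each library. Of these, 31 had a mean of at least 1 FPKM (fragments mapped to a transcript, per kilobase of its length and scaled to library size) and were tested among 11559 genes. Aldoc, Egln3 and Car9 were below that level. The cells came from wild type C57BL/6 mice aged 35 weeks. They were taken from livers on a high-fat diet, separately from the tumour and the non-tumour region, or from livers on a normal diet. Each source was perfused at 37 or at 6 degrees, and cells without CD31 and CD45.2 but with CD49a on the surface were sorted. Each of the 6 combinations had 1 library, and the labels leave unsaid whether different animals gave them and whether livers were pooled. With limma on log2(FPKM + 1) and additive terms for source and temperature, the temperature effect rests on 3 pairs of libraries and each source effect on 2. Each p-value sets an effect against how far the 6 libraries depart from additivity, a spread moderated towards that of other genes. It holds no spread between replicate libraries, and the departure may be technical. A source effect that depends on temperature could not be tested.

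Glycolysis splits glucose into pyruvate in the cytosol and yields ATP without oxygen, and lactate dehydrogenase then turns pyruvate into lactate, which monocarboxylate transporters carry across the membrane. When oxygen is low, prolyl hydroxylases of the EGLN family no longer mark HIF-1 alpha for degradation, and the stabilised factor binds DNA at a short core sequence and raises transcription of glucose transporters, most glycolytic enzymes and genes of mitophagy, vessel tone and collagen modification. HIF-1 alpha itself is thus controlled mainly at the protein level. Stellate cells are pericytes of the liver sinusoid that store vitamin A and make matrix after injury, and their activation is known to go along with a shift towards glycolysis.

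The libraries held an estimated 16400000 to 23000000 fragments, and a single fragment on a 1 kb transcript gave 0.0434 to 0.0608 FPKM. The 13 stellate cell markers, Lrat and Des among them, were above 0 in every library and summed to 23650 to 38600 FPKM. Markers of cells that the sort was meant to leave out were also present. The 14 endothelial markers summed to 878, 993.1 and 449.7 FPKM at 37 degrees in tumour, non-tumour and normal diet cells, and to 2504, 4755 and 2117 FPKM at 6 degrees. Eng, which varied little, alone gave 349.9, 421.3 and 378.5 FPKM of these sums at 37 degrees, and 427.2, 587.8 and 438.2 FPKM at 6 degrees. The sums therefore understate how far the other endothelial markers differed between libraries. The 14 macrophage markers summed to 890.5, 35.7 and 49.1 FPKM at 37 degrees, and to 2221, 629.5 and 533.5 FPKM at 6 degrees in the same sources, with Marco and Timd4 at 0 in the non-tumour library of 37 degrees. The 12 hepatocyte markers summed to 196.3 to 599.8 FPKM, of which Trf alone gave 130.3 to 293.1 FPKM. In bulk libraries, fewer cells of a type and less RNA per cell cannot be told apart.

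By mean FPKM, the 34 genes lay between ranks 71 and 14338 of 23063 symbols. Aldoa, an aldolase that splits fructose 1,6-bisphosphate, was the most abundant with a mean of 756.3 FPKM over the 6 libraries. Ldha, Gapdh and Pkm followed with means of 524.7, 441.1 and 395.5 FPKM. At the low end, Aldoc lay between 0 and 0.22 FPKM, and was listed at 0 in the normal diet library of 37 degrees. Egln3, an oxygen sensor that is itself a HIF target, had 0.24 and 0.62 FPKM in tumour cells at 37 and 6 degrees, 0.32 and 0.90 FPKM in non-tumour cells, and 0.11 and 0.33 FPKM in normal diet cells. Car9, the hypoxia-induced carbonic anhydrase, had 0.093 and 0.76 FPKM in tumour cells at 37 and 6 degrees, 0.061 and 0.24 FPKM in non-tumour cells, and 0.11 and 0.38 FPKM in normal diet cells. Both genes were lower at 37 degrees than at 6 degrees in all 3 sources. Their values at 37 degrees were the nearer to a single fragment, and neither gene was tested.

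**Figure D1:**
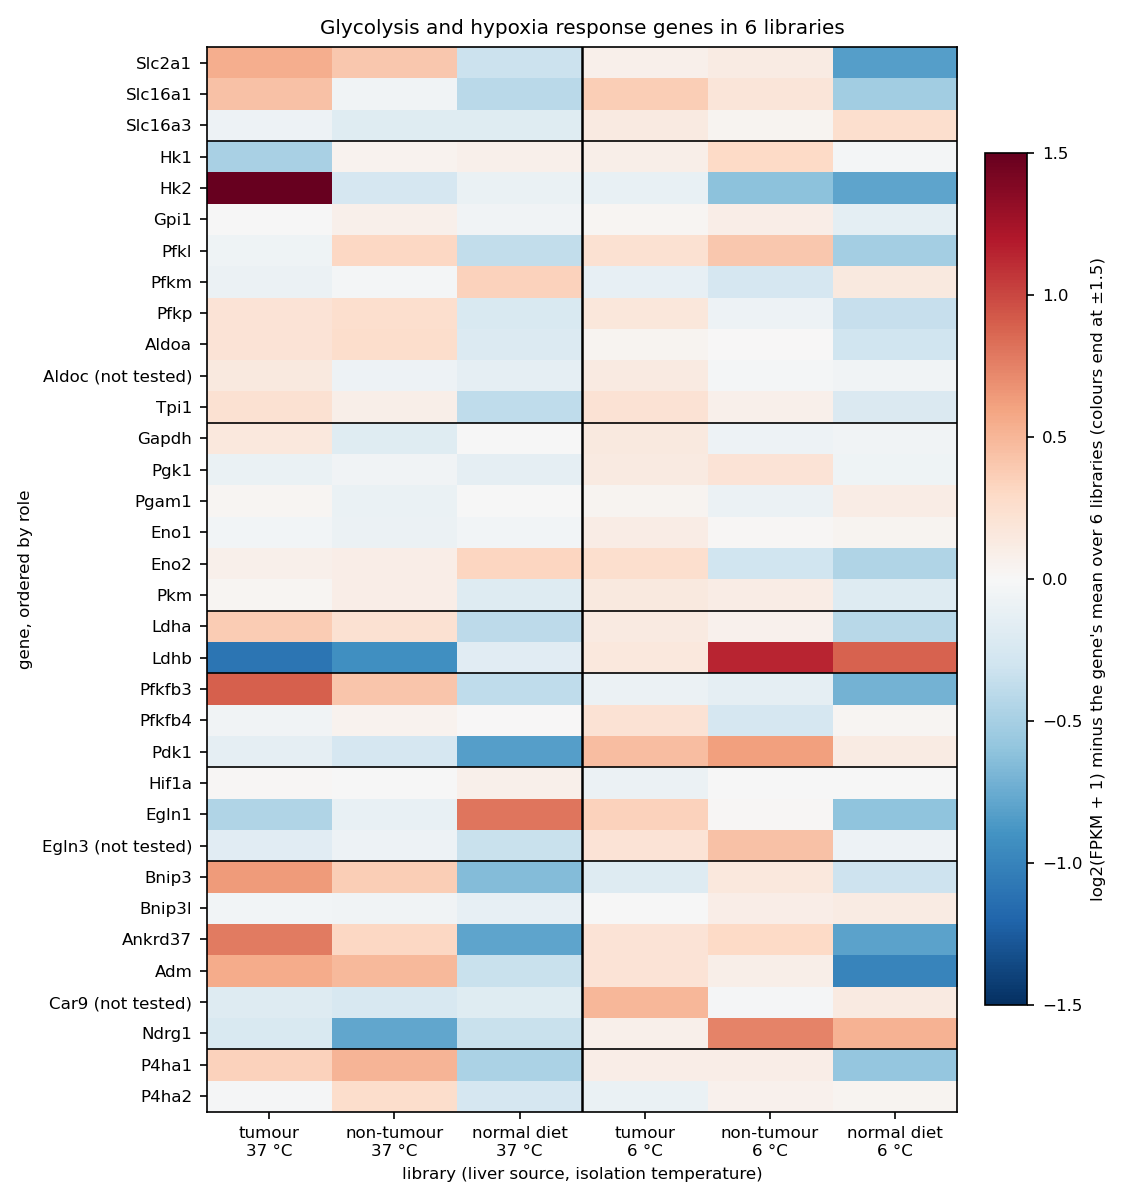
Heat map of the 34 genes (rows, ordered by role and divided by lines) in the 6 libraries (columns, liver source and isolation temperature); colours give log2(FPKM + 1) minus the mean of the gene over the 6 libraries. Slc2a1, Ldha, Ankrd37, Adm and P4ha1 are red in all 4 high-fat diet columns and blue in both normal diet columns, Ldhb is blue in the columns of 37 degrees, and Hk2 stands out in the tumour library of 37 degrees with 11.0 FPKM.

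At the enolase step, 1 isoenzyme made up nearly all of the summed FPKM in every library, with Eno1 at 94.1 to 97.3%. Phosphofructokinase was shared, with Pfkp at 45.9 to 57.3%, Pfkl at 34.2 to 47.3% and Pfkm at 6.83 to 13.8%. Hexokinase and lactate dehydrogenase varied more between libraries. Hk2 was 40.2% of the hexokinases Hk1, Hk2 and Hk3 in the tumour library of 37 degrees and 3.89 to 8.22% in the other 5. Ldhb was 1.26, 1.59 and 4.17% of the lactate dehydrogenases in tumour, non-tumour and normal diet cells at 37 degrees, and 3.72, 7.6 and 8.72% at 6 degrees.

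HIF binds DNA at a core of ACGTG or GCGTG, and both strings were searched on both strands in the 250 bases before each RefSeq transcript start (GRCm38.p6). Of the 34 genes, 32 had at least 1 such window, Bnip3l and Ndrg1 being the exceptions, and 19 held ACGTG in at least 1 of their windows. Over windows, 22 of 45 (48.9%) held ACGTG, against 21.6% of the 11273 windows of genes tested and 16.6% of all 32851 windows. GCGTG was in 55.6% of the windows of the 34 genes, 44.7% of those of genes tested and 28.2% of all. The windows differed in base composition, with a median of 14 CG pairs in the 34 genes, 16 in the genes tested and 6 in all. Known HIF targets were among the 34 genes by choice, so the shares are no independent result about them. Windows of a gene can also overlap and hold the same match, as for Aldoa and Eno1. A match is only a string of letters and not a measured binding site. The 5 windows printed here belong to 4 genes that were higher in both high-fat diet regions (Ankrd37, Ldha, P4ha1, Adm) and to Ldhb, which was lower at 37 degrees. Slc2a1, also higher in both regions, and Pdk1, also lower at 37 degrees, are not printed. The Slc2a1 window held each string once. A Pdk1 window held GCGTG once, and that of its other start held neither string. In the printed windows, capitals mark each ACGTG or GCGTG and its reverse complement, and overlapping matches run together. The 5 windows lie at chr8:45999851-46000100 (minus strand) for Ankrd37, chr7:46845554-46845803 (plus strand) for Ldha, chr10:59323046-59323295 (plus strand) for P4ha1, chr7:110627407-110627656 (plus strand) for Adm and chr6:142507958-142508207 (minus strand) for Ldhb.
Ankrd37: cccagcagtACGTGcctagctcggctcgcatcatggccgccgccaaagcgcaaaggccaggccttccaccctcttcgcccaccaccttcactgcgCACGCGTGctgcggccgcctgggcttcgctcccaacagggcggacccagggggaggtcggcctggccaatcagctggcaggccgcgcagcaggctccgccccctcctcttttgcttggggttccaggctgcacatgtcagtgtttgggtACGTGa
Ldha: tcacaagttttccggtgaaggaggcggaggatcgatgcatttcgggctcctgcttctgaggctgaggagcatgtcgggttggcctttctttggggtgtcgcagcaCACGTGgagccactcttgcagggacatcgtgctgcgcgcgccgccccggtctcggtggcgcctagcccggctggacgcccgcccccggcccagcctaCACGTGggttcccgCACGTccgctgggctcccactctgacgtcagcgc
P4ha1: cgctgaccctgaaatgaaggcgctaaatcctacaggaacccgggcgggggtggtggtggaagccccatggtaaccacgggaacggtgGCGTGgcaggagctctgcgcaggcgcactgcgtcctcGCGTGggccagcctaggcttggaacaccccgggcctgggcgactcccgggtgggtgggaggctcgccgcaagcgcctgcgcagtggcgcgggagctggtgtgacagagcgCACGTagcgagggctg
Adm: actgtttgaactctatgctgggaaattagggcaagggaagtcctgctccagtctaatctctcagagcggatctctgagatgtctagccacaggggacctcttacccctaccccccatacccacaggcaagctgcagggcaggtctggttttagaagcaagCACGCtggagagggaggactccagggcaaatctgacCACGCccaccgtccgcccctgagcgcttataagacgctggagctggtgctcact
Ldhb: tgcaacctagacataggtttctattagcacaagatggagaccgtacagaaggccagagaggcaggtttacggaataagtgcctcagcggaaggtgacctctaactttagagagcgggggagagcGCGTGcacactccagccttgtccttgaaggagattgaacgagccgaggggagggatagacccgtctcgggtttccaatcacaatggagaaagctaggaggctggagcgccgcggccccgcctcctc
The Ldha window held ACGTG at 3 places, and in 2 of them it is part of the palindrome CACGTG. The Ankrd37 window held ACGTG at 2 places and the P4ha1 window at 1, while those of Adm and Ldhb held GCGTG only. Ldha had a second annotated start, whose window held GCGTG once and no ACGTG.

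The first comparisons set each high-fat diet region against normal diet livers. Cells from the tumour region held more transcript of 8 of the 31 tested genes: the glucose transporter Slc2a1, the lactate transporter Slc16a1, Tpi1, Ldha, Pfkfb3, Ankrd37, Adm and P4ha1. Their log2 fold changes ran between 0.52 and 1.29. No gene of the group was lower. Of all 11559 genes, 6.07% were higher and 3.28% lower at the same adjusted p under 0.05. Higher genes were 64.9% of these calls, and 53.5% of those made after quantile normalization. Cells from the non-tumour region held more of 6 of the 31 genes, Slc2a1, Pfkl, Ldha, Ankrd37, Adm and P4ha1, and less of none, beside 2.98% higher and 2.59% lower of all genes. Here higher genes were 53.5% of the calls, and 46.6% after quantile normalization. Both comparisons use the same normal diet libraries and are not independent of each other.

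Over the 31 genes, the median log2 fold change was 0.225 in the tumour region and 0.187 in the non-tumour region against normal diet, beside 0.0106 and 0.0298 over all genes tested. Quantile normalization lowered the median of the 31 genes to 0.054 and 0.102. After it, Tpi1 no longer passed in the tumour region, nor Ldha in the non-tumour region, while median-ratio rescaling kept all 8 and all 6 calls. The FPKM of all symbols summed to 512724 and 492693 in normal diet cells at 37 and 6 degrees, against 545408 to 633363 in the high-fat diet libraries. Both tumour libraries were above both normal diet libraries for 15 of the 31 genes (25.1% of all genes tested) and below them for 1, Pfkm (24.7% of all genes). Both non-tumour libraries were above both normal diet libraries for 16 genes (24.1% of all genes), and below them for Gapdh, Pfkm and Pgam1 (21.3% of all genes). An unadjusted p under 0.05 was reached by 15 genes as higher (15.4% of all genes) and 2 as lower (10.6%) in the tumour region, and by 14 as higher (12.6%) and 1 as lower (9.02%) in the non-tumour region.

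**Figure D2:**
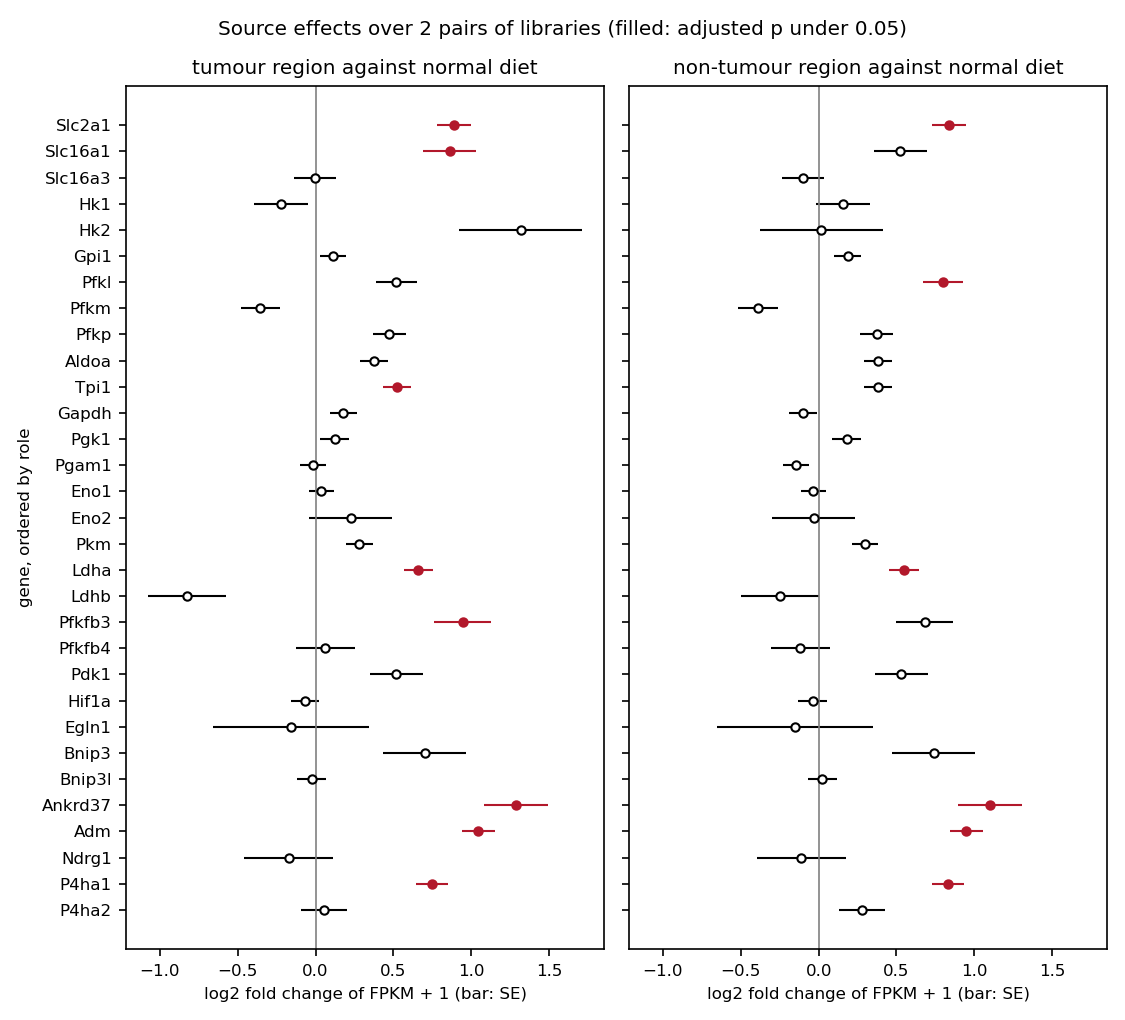
Log2 fold changes of FPKM + 1 (x axis; points, with bars for 1 standard error) for the 31 tested genes, in the tumour region against normal diet (left) and the non-tumour region against normal diet (right), each over 2 pairs of libraries; filled points had an adjusted p under 0.05. Ankrd37 (1.29), Adm (1.04) and Pfkfb3 (0.94) had the largest called changes on the left, Ankrd37 (1.10) and Adm (0.95) on the right, and Hk2, Egln1 and Bnip3 had wide errors.

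Glucose enters these cells mainly through facilitative transporters, of which Slc2a1 (GLUT1, mm10 chr4:119108711-119137983, plus strand) is the widely expressed one. It had 29.6 and 21.0 FPKM in tumour cells at 37 and 6 degrees, 26.7 and 21.8 FPKM in non-tumour cells, and 15.7 and 10.8 FPKM in normal diet cells. All 4 high-fat diet libraries were above both normal diet libraries. The log2 fold change was 0.89 ± 0.11 (SE) for the tumour region (limma, adjusted p = 0.0132) and 0.84 ± 0.11 for the non-tumour region (adjusted p = 0.0173). Exons of Slc2a1 overlap exons of Gm12868 on the other strand, and the use of strand in the counting is not given in the sources used here.

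Slc16a1 (MCT1, chr3:104638668-104658462, plus strand) carries lactate and pyruvate in either direction. It had 3.54 and 3.32 FPKM in tumour cells at 37 and 6 degrees, 2.24 and 2.80 FPKM in non-tumour cells, and 1.54 and 1.34 FPKM in normal diet cells. The 2 tumour libraries were the highest and the 2 normal diet libraries the lowest. The change was 0.86 ± 0.17 in the tumour region (adjusted p = 0.0404, limma) and 0.52 ± 0.17 in the non-tumour region (adjusted p = 0.158). Slc16a3 (MCT4), the lactate exporter of glycolytic cells and a HIF target, lay between 5.47 and 7.70 FPKM in all 6 libraries and did not pass in either region.

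Among the 8 tested enzymes of the preparatory phase, which spends ATP to split the sugar, 1 rose in each region. Of all genes tested, 6.07% were higher in the tumour region and 2.98% in the non-tumour region. Tpi1 (triose phosphate isomerase, chr6:124810586-124814296, minus strand) had 175.9 and 175.2 FPKM in tumour cells at 37 and 6 degrees, 159.9 and 158.5 FPKM in non-tumour cells, and 115.0 and 129.5 FPKM in normal diet cells. It rose by 0.52 ± 0.09 in the tumour region (limma, adjusted p = 0.028), while the value for the non-tumour region was 0.38 ± 0.09 (adjusted p = 0.0806). The groups did not overlap, but Tpi1 shares exon positions with Spsb2 on the other strand. Pfkl, the liver-type phosphofructokinase of the committed step (chr10:77986947-78010083, minus strand), had 30.7 and 38.0 FPKM in tumour cells at 37 and 6 degrees, 40.4 and 43.0 FPKM in non-tumour cells, and 24.8 and 22.3 FPKM in normal diet cells. It rose by 0.80 ± 0.13 in the non-tumour region (adjusted p = 0.0322), against 0.52 ± 0.13 in the tumour region (adjusted p = 0.0736). The other 2 phosphofructokinases moved to either side of 0 without passing. Pfkp, the platelet type, had values of 0.47 in the tumour and 0.37 in the non-tumour region (adjusted p = 0.0547 and 0.119, limma). Pfkm, the muscle type, had values of -0.35 and -0.39 (adjusted p = 0.161 and 0.16), and both its normal diet libraries (9.96 and 8.54 FPKM) were above the other 4.

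Aldoa had 863.4 and 769.4 FPKM in tumour cells at 37 and 6 degrees, 896.5 and 750.5 FPKM in non-tumour cells, and 647.9 and 609.9 FPKM in normal diet cells, a difference of 0.37 and 0.38 on the log2 scale that did not pass (adjusted p = 0.0658 and 0.0801, limma). Hk1 and Gpi1, which start the pathway and interconvert its hexose phosphates, did not pass. Of the 6 enzymes of the payoff phase, which yields ATP and NADH, none passed in either region. Only Pkm had an unadjusted p under 0.05 (limma), as higher in both regions (15.4% and 12.6% of all genes). A difference between the 2 phases was not tested. Gapdh, Pgk1, Pgam1, Eno1 and Pkm each spanned no more than 1.28-fold between their lowest and highest library. Pkm came nearest to passing, at 0.28 in the tumour and 0.30 in the non-tumour region (adjusted p = 0.109 and 0.117). Eno2, the enolase of neurons, had the widest span of the phase, 3.09-fold, at 0.52 to 1.61 FPKM.

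Ldha (chr7:46841475-46855627, plus strand) encodes the subunit of lactate dehydrogenase that favours lactate formation. It had 671.2 and 562.1 FPKM in tumour cells at 37 and 6 degrees, 602.1 and 536.2 FPKM in non-tumour cells, and 392.0 and 384.8 FPKM in normal diet cells. The 4 high-fat diet libraries stood apart from both normal diet libraries. Ldha rose by 0.66 ± 0.09 in the tumour region and by 0.55 ± 0.09 in the non-tumour region (limma, adjusted p = 0.0179 and 0.0373). The annotation names 2 pseudogenes of Ldha, so reads could have been divided between copies. Ldhb, the subunit that favours the reverse reaction, had a value of -0.83 ± 0.25 in the tumour region and -0.25 ± 0.25 in the non-tumour region, and passed in neither (adjusted p = 0.111 and 0.647).

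Flux through glycolysis is also set by fructose 2,6-bisphosphate, which PFKFB enzymes make, and by pyruvate dehydrogenase kinases, which keep pyruvate out of mitochondria. Pfkfb3 (chr2:11471433-11554077, minus strand) had 17.5 and 8.36 FPKM in tumour cells at 37 and 6 degrees, 12.3 and 8.03 FPKM in non-tumour cells, and 6.67 and 5.09 FPKM in normal diet cells. It rose by 0.94 ± 0.18 in the tumour region (adjusted p = 0.0382, limma), and had a value of 0.68 ± 0.18 in the non-tumour region (adjusted p = 0.104). Pdk1, a HIF target, had values of 0.52 ± 0.17 and 0.53 ± 0.17 (adjusted p = 0.134 and 0.153). Pfkfb4 stayed between 2.24 and 3.46 FPKM.

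**Figure D3:**
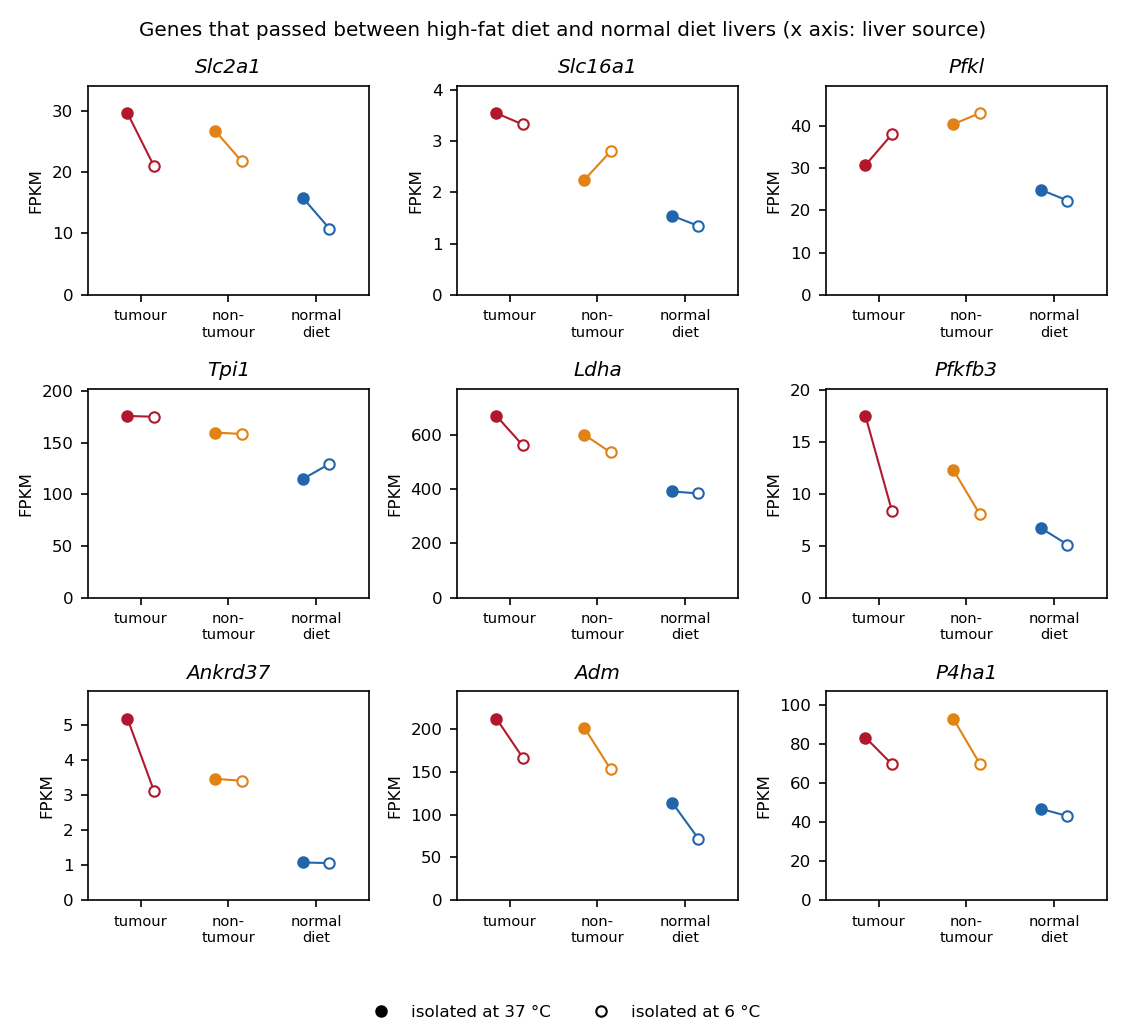
FPKM (y axes, from 0) of the 9 genes that passed in at least 1 high-fat diet region against normal diet, by liver source (x axis); filled circles are libraries of 37 degrees, open circles libraries of 6 degrees, and a line joins the 2 libraries of a source. For each gene the normal diet pair lies below the pair or pairs that passed, as for Ldha with 392.0 and 384.8 FPKM in normal diet cells.

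Hif1a transcripts were nearly level, at 32.8 and 30.3 FPKM in tumour cells at 37 and 6 degrees, 32.2 and 32.3 FPKM in non-tumour cells, and 34.1 and 32.2 FPKM in normal diet cells. The interval of the log2 difference (95%) ran from -0.30 to 0.16 for the tumour region and from -0.27 to 0.19 for the non-tumour region. Egln1 (PHD2), the main sensor that marks HIF-1 alpha for degradation, had 7.21 and 13.3 FPKM in tumour cells at 37 and 6 degrees, 9.42 and 10.4 FPKM in non-tumour cells, and 18.7 and 6.43 FPKM in normal diet cells. The normal diet library was thus the highest of the 3 sources at 37 degrees and the lowest at 6 degrees. The average over temperatures was -0.16 ± 0.50 in the tumour region, with an interval from -1.42 to 1.10.

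Of the 5 tested HIF targets outside glycolysis, Ankrd37 and Adm rose in both regions, beside 6.07% and 2.98% of all genes. Ankrd37 (chr8:45996902-46005707, minus strand), which encodes an ankyrin repeat protein, had 5.18 and 3.13 FPKM in tumour cells at 37 and 6 degrees, 3.47 and 3.41 FPKM in non-tumour cells, and 1.08 and 1.06 FPKM in normal diet cells. It rose by 1.29 ± 0.20 in the tumour region and by 1.10 ± 0.20 in the non-tumour region (limma, adjusted p = 0.0224 and 0.0451). Its exons overlap those of Lrp2bp and Ufsp2 on the other strand. Adm (chr7:110627661-110629820, plus strand) encodes adrenomedullin, a secreted peptide that relaxes vessels. It had 211.7 and 166.2 FPKM in tumour cells at 37 and 6 degrees, 201.3 and 152.7 FPKM in non-tumour cells, and 113.9 and 71.7 FPKM in normal diet cells. It rose by 1.04 ± 0.11 in the tumour region (adjusted p = 0.00941) and by 0.95 ± 0.11 in the non-tumour region (adjusted p = 0.0129).

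Bnip3 and Bnip3l encode receptors that mark mitochondria for removal. Bnip3 had 81.3 and 45.1 FPKM in tumour cells at 37 and 6 degrees, 67.1 and 57.8 FPKM in non-tumour cells, and 32.7 and 41.5 FPKM in normal diet cells. Both libraries of each high-fat diet region were above both normal diet libraries, but the gap between tumour and normal diet cells was 2.48-fold at 37 degrees and 1.08-fold at 6 degrees, and the value of 0.70 ± 0.27 did not pass (adjusted p = 0.178, limma). Bnip3l spanned 61.2 to 72.7 FPKM. Ndrg1, a stress-induced growth regulator, had values of -0.17 ± 0.29 and -0.11 ± 0.29 in the tumour and non-tumour region (adjusted p = 0.753 and 0.88).

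The prolyl 4-hydroxylase subunits modify collagen in the endoplasmic reticulum and need oxygen. P4ha1 (chr10:59323296-59373304, plus strand) had 83.3 and 69.7 FPKM in tumour cells at 37 and 6 degrees, 92.9 and 70.0 FPKM in non-tumour cells, and 46.8 and 43.1 FPKM in normal diet cells. It rose by 0.75 ± 0.10 in the tumour region and by 0.83 ± 0.10 in the non-tumour region (limma, adjusted p = 0.0165 and 0.0151). P4ha2 had 17.4 and 16.3 FPKM in tumour cells at 37 and 6 degrees, 21.4 and 18.5 FPKM in non-tumour cells, and 14.6 and 18.1 FPKM in normal diet cells, and did not pass. P4ha1 was 82.7 and 81% of the summed FPKM of both genes in tumour cells, 81.3 and 79.1% in non-tumour cells, and 76.3 and 70.5% in normal diet cells.

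These calls depended on single libraries. Adm passed in the tumour region without any 1 of the 6 libraries (adjusted p from 0.0234 to 0.0399, limma). Of the 8 genes, it was the only one to pass without the tumour or the normal diet library of 37 degrees, and only Adm and P4ha1 passed without the normal diet library of 6 degrees. Without either non-tumour library the fit called 5 genes, Adm, Ldha, P4ha1 and Slc2a1 as higher and Ldhb as lower. Without the tumour library of 6 degrees it called 8, with Hk2 and Bnip3 in place of Slc16a1 and Tpi1. In the non-tumour region, 0 of the 31 genes passed without either non-tumour library (8 and 11 had an unadjusted p under 0.05 without that of 37 and that of 6 degrees, as did 14.6% and 12.4% of all genes). Without the normal diet library of 37 degrees only Adm passed (adjusted p = 0.0378), and without that of 6 degrees only Adm (0.0488) and P4ha1 (0.0459).

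Markers of other cells moved with source. In the tumour region against normal diet, 7 of 13 tested macrophage markers were higher, 2 of 14 endothelial markers were higher, and 8 of 8 proliferation markers were lower. The proliferation markers summed to 20.4 and 69.0 FPKM in tumour cells at 37 and 6 degrees, 11.4 and 35.2 FPKM in non-tumour cells, and 142.1 and 209.3 FPKM in normal diet cells. In the non-tumour region, 0 of 13 macrophage markers passed (limma, 1 at an unadjusted p under 0.05, lower) and their sum was 35.7 and 629.5 FPKM, against 49.1 and 533.5 FPKM in normal diet cells. There, 3 of 14 endothelial markers were higher and 8 of 8 proliferation markers were lower. At an unadjusted p under 0.05, 10 of 14 endothelial markers were higher in the tumour region and 14 of 14 in the non-tumour region, with median log2 fold changes of 1.24 and 1.94. The part of these cells and of cell division in the gene values was not tested.

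**Figure D4:**
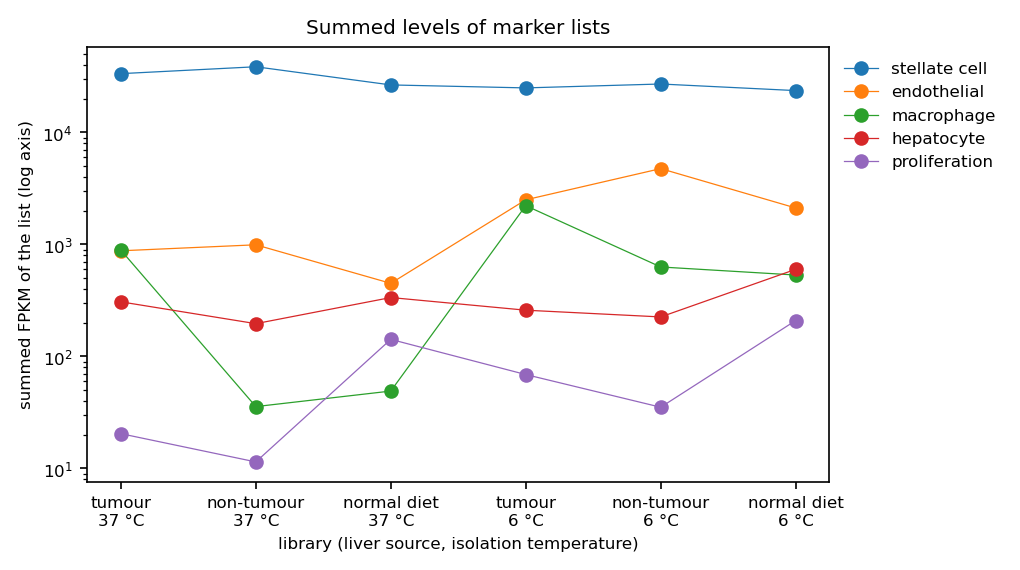
Summed FPKM (y axis, log scale) of the marker lists of stellate cells, endothelial cells, macrophages, hepatocytes and proliferation in the 6 libraries (x axis); each point is 1 library and lines only join the points of a list. Endothelial and macrophage sums were lower at 37 degrees than at 6 degrees in each source, and proliferation sums were highest in the normal diet libraries (142.1 FPKM at 37 degrees and 209.3 FPKM at 6 degrees). Eng alone gave 378.5 of the endothelial 449.7 FPKM in the normal diet library of 37 degrees.

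The 2 regions of the high-fat diet livers were also compared with each other. None of the 31 genes passed (limma), and 2, Hk2 and Gapdh, had an unadjusted p under 0.05, both higher in the tumour region (6.37% of all genes as higher and 3.75% as lower). Of all genes tested, 0.45% passed as higher and 0% as lower. The median log2 fold change was 0.036 over the 31 genes and -0.0185 over all genes, and that of the 31 genes was -0.00651 after quantile normalization. Both tumour libraries were above both non-tumour libraries for 5 genes, Gapdh, Hk2, Pgam1, Slc16a1 and Tpi1 (14.7% of all genes tested), and below them for Gpi1, P4ha2 and Pfkl (17.8% of all genes).

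Hk2, the inducible hexokinase of muscle and proliferating cells, showed the widest span of the preparatory enzymes. It had 11.0 and 2.07 FPKM in tumour cells at 37 and 6 degrees, 1.80 and 1.17 FPKM in non-tumour cells, and 2.11 and 0.92 FPKM in normal diet cells. The tumour library of 37 degrees stood far above the other 5, and the other tumour library lay just under the normal diet library of 37 degrees. Hk2 had a value of 1.30 ± 0.40 in the tumour against the non-tumour region (adjusted p = 0.377, limma) and of 1.32 ± 0.40 against normal diet (adjusted p = 0.109). Without the tumour library of 6 degrees, which leaves that of 37 degrees alone for its source, these were 2.02 (adjusted p = 0.0334) and 2.04 (adjusted p = 0.0143). Without the tumour library of 37 degrees they were 0.58 and 0.60 (adjusted p = 0.713 and 0.301). Hk1, the constitutive hexokinase, was lowest in the same tumour library of 37 degrees, with 15.3 FPKM against 21.3 to 27.1 FPKM in the other 5.

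Gapdh had 491.9 and 485.6 FPKM in tumour cells at 37 and 6 degrees and 387.1 and 418.6 FPKM in non-tumour cells, a value of 0.28 ± 0.09 on the log2 scale (adjusted p = 0.394, limma). Slc2a1, Ldha, Adm and P4ha1 had values of 0.05, 0.11, 0.10 and -0.08, with 95% intervals from -0.23 to 0.32, -0.13 to 0.35, -0.17 to 0.37 and -0.34 to 0.18. Of 13 tested macrophage markers, Mpeg1 and Ptprc passed as higher in the tumour region, and the median log2 fold change was 2.51. At an unadjusted p under 0.05 (limma), 12 of 13 macrophage, 3 of 3 neutrophil and 6 of 8 proliferation markers were higher. Of 14 endothelial markers, 2 were lower. The part of these cells in the differences between the regions was not tested.

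The series was designed around the side effects of warm incubation, and the last comparison set cells isolated at 37 degrees against cells isolated at 6 degrees over the 3 sources. Adm was higher at 37 degrees, and Ldhb and Pdk1 were lower. Of all genes tested, 0.51% were higher and 4.62% lower. Without the non-tumour pair of libraries, 32 of all genes were higher and 50 lower, against 59 and 534 with it. With a term for source in the fit, a source left with 1 library adds nothing to the temperature effect. Leaving out either of its libraries, or both, therefore gave the same fold changes. The median log2 fold change of the 31 genes was 0.00655, beside 0.014 over all genes, and it was -0.00874 after median-ratio rescaling and -0.00196 after quantile normalization. A total of 10 genes were higher at 37 degrees in all 3 sources (23.4% of all genes tested) and 8 were lower in all 3 (21.8% of all genes). The 10 were Slc2a1, Hk2, Pfkm, Pfkp, Aldoa, Ldha, Pfkfb3, Ankrd37, Adm and P4ha1, and the 8 were Slc16a3, Pgk1, Pgam1, Eno1, Ldhb, Pdk1, Bnip3l and Ndrg1. An unadjusted p under 0.05 was reached by 5 genes as higher (8.52% of all genes) and 5 as lower (12.1%).

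Ldhb (chr6:142490249-142507957, minus strand) had the largest called change. It fell to 8.55 FPKM in tumour cells, 9.75 FPKM in non-tumour cells and 17.1 FPKM in normal diet cells at 37 degrees, against 21.7, 44.1 and 36.8 FPKM in the same sources at 6 degrees. All 3 libraries of 37 degrees were below all 3 of 6 degrees. The log2 fold change was -1.46 ± 0.20 (limma, adjusted p = 0.0213), and without the non-tumour pair it was -1.16 and did not pass. Ldha, the partner subunit, had a value of 0.15 ± 0.08 (adjusted p = 0.349).

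Pdk1 (chr2:71873224-71903858, plus strand) fell to 2.04 FPKM in tumour cells, 1.78 FPKM in non-tumour cells and 0.88 FPKM in normal diet cells at 37 degrees, against 3.59, 4.09 and 2.62 FPKM at 6 degrees. The 2 groups of temperature did not overlap. The change was -0.80 ± 0.14 (adjusted p = 0.0393, limma), and it did not pass without any 1 of the 6 libraries (adjusted p from 0.0549 to 0.244). Pdk1 was 5.06, 5.16 and 2.54% of the summed FPKM of Pdk1 to Pdk4 in tumour, non-tumour and normal diet cells at 37 degrees, and 9.33, 10.3 and 6.07% at 6 degrees.

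Adm had 211.7, 201.3 and 113.9 FPKM in tumour, non-tumour and normal diet cells at 37 degrees, against 166.2, 152.7 and 71.7 FPKM at 6 degrees. It was higher at 37 degrees within each source, although the groups overlap across sources. The change was 0.47 ± 0.09 (limma, adjusted p = 0.0481). The call held under none of the 16 alternatives, with adjusted p from 0.0519 to 0.722 and log2 fold changes from 0.37 to 0.53.

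**Figure D5:**
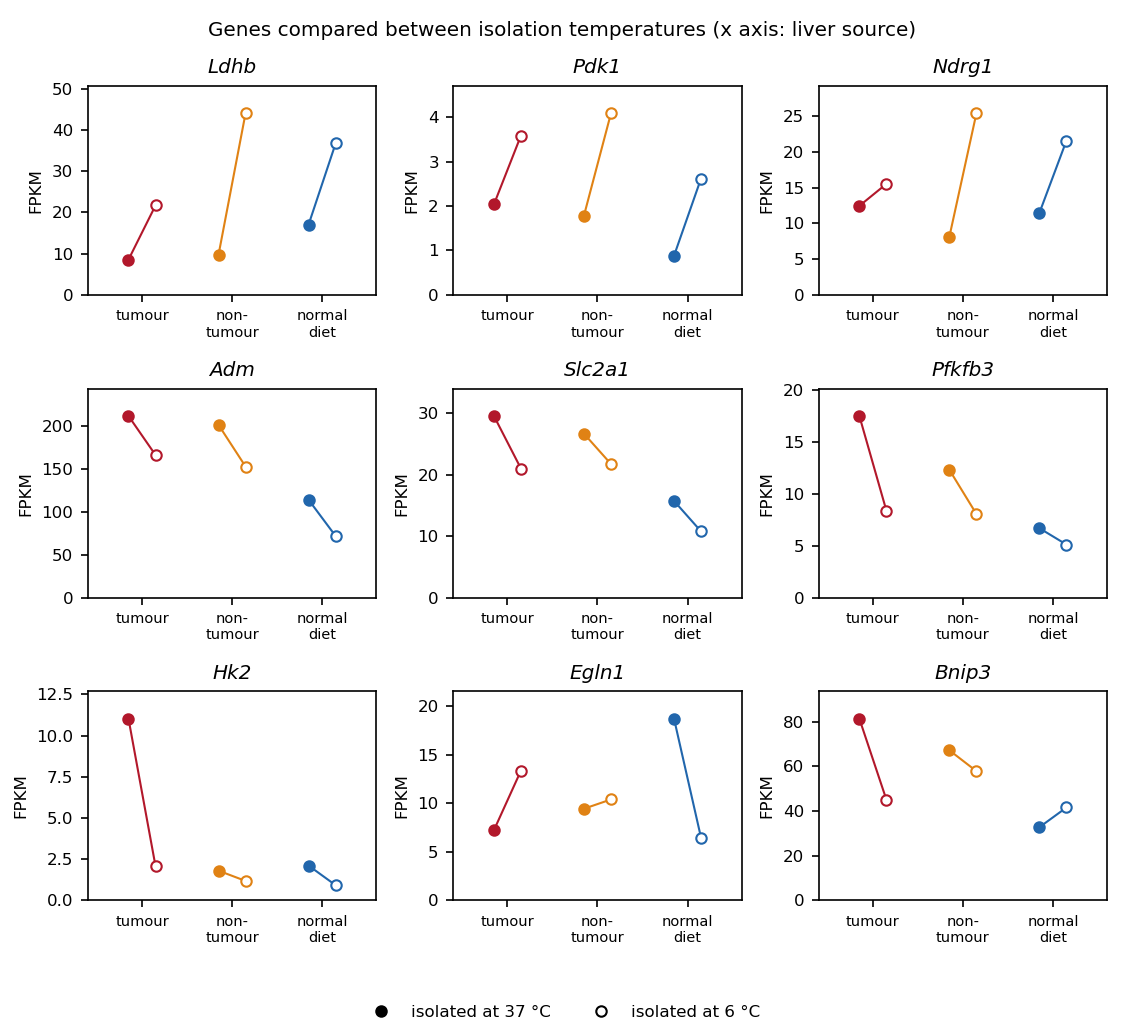
FPKM (y axes, from 0) of 9 genes by liver source (x axis), with libraries of 37 degrees as filled circles and libraries of 6 degrees as open circles; a line joins the 2 libraries of a source. Ldhb, Pdk1 and Ndrg1 are lower at 37 degrees in each source, Adm, Slc2a1, Pfkfb3 and Hk2 are higher, and the lines of Egln1 and Bnip3 slope in opposite ways between sources.

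Further genes had the same direction in each source without passing. Ndrg1 had 12.5, 8.16 and 11.5 FPKM in tumour, non-tumour and normal diet cells at 37 degrees, against 15.5, 25.4 and 21.6 FPKM at 6 degrees. Its value was -0.89 ± 0.23 (adjusted p = 0.113, limma), and -1.19 without the tumour pair, where it passed. Slc2a1, Pfkfb3 and Hk2 had values of 0.42 ± 0.09, 0.62 ± 0.15 and 1.01 ± 0.32 (adjusted p = 0.0681, 0.0925 and 0.168). For Hk2 most of it lay in tumour cells, with a 5.32-fold difference between the temperatures, against 1.53-fold in non-tumour and 2.3-fold in normal diet cells.

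For Egln1 and Bnip3 the direction depended on the source. Egln1 was 0.541-fold in tumour cells, 0.908-fold in non-tumour cells and 2.9-fold in normal diet cells at 37 relative to 6 degrees. Bnip3 was 1.8-fold, 1.16-fold and 0.788-fold in the same sources. With 1 library per group these differences between sources have no test.

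Markers of other cells moved with temperature as well. At 37 degrees 13 of 14 endothelial markers and 9 of 13 tested macrophage markers were lower, with median log2 fold changes of -3.12 and -2.64, and 4 of 13 stellate cell markers were higher. Pecam1, which encodes the CD31 used in the sort, had 10.7, 9.99 and 0.90 FPKM at 37 degrees in tumour, non-tumour and normal diet cells, against 53.0, 90.6 and 31.4 FPKM at 6 degrees. The non-tumour library of 6 degrees held the highest endothelial sum. The 8 genes lower at 37 degrees in all 3 sources had to be highest in a library of 6 degrees, by their choice. Which of these libraries was highest was not counted over all genes. Ldhb, Pdk1, Ndrg1 and Pgk1 were highest in the non-tumour library of 6 degrees. Slc16a3, Pgam1 and Bnip3l were highest in the normal diet library of 6 degrees, and Eno1 in the tumour library of 6 degrees. The part of these cells in the temperature differences was not tested.

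Genes of the same pathways outside the 34 were followed in 4 lists. Of 33 tested hypoxia targets (38 listed), 6 were higher in the tumour region, and 2 in the non-tumour region against normal diet (limma), beside 6.07% and 2.98% of all genes. None passed in the tumour against the non-tumour region, where 9 of the 33 had an unadjusted p under 0.05, 8 of them higher (6.37% of all genes as higher and 3.75% as lower). With temperature, 2 were higher and 1 lower, beside 0.51% and 4.62% of all genes. Their median log2 fold changes were 0.435 in the tumour region, 0.244 in the non-tumour region and 0.259 with temperature, beside 0.0106, 0.0298 and 0.014 over all genes. Of 25 tested genes of glycolysis and pyruvate use (35 listed), Emb was higher and Pdp1 lower in the tumour region, Pdp1 was lower in the non-tumour region, and Hk3 was lower at 37 degrees. The 15 tested HIF regulators, Epas1, Arnt and Vhl among them, and the 4 tested hepatocyte isoforms held no call in any comparison. At an unadjusted p under 0.05, 2 HIF regulators were higher and 1 lower in the tumour region against normal diet (15.4 and 10.6% of all genes). In the non-tumour region against normal diet there were 0 (12.6 and 9.02%). In the tumour against the non-tumour region 2 were higher and 0 lower (6.37 and 3.75%). With temperature 2 were higher and 1 lower (8.52 and 12.1%). The hepatocyte isoforms had 2 lower with temperature (12.1% of all genes) and 0 otherwise.

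Among the hypoxia targets, Cox4i2, a cytochrome c oxidase subunit of smooth muscle and lung that low oxygen induces, had 27.5 and 16.7 FPKM in tumour cells at 37 and 6 degrees, 21.6 and 12.6 FPKM in non-tumour cells, and 5.62 and 3.98 FPKM in normal diet cells. It rose by 1.97 ± 0.13 in the tumour region and by 1.61 ± 0.13 in the non-tumour region (limma, adjusted p = 0.00695 and 0.00699). The 4 high-fat diet libraries stood far apart from both normal diet libraries. Hilpda, a lipid droplet protein, had 196.8 and 106.7 FPKM in tumour cells at 37 and 6 degrees, 142.0 and 120.1 FPKM in non-tumour cells, and 53.5 and 49.5 FPKM in normal diet cells. It rose by 1.48 ± 0.19 and 1.33 ± 0.19 (adjusted p = 0.0151 and 0.0234). Errfi1, a feedback inhibitor of the EGF receptor, rose by 2.02 ± 0.31 in the tumour region (adjusted p = 0.0204), with 531.8 and 196.1 FPKM in tumour cells at 37 and 6 degrees, against 89.2 and 69.4 FPKM in normal diet cells. Stc1 (1.19 ± 0.17, adjusted p = 0.0183) and Pgf (1.18 ± 0.24, adjusted p = 0.0452), both secreted, also rose in the tumour region, and Emb and Ndufa4l2 were the other 2 genes higher there. Pdp1, the phosphatase that activates pyruvate dehydrogenase, fell by 0.79 in the tumour region and by 0.56 in the non-tumour region (adjusted p = 0.0153 and 0.0465).

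Without a single library some of these calls were lost. Cox4i2 passed in the tumour region without any 1 of the 6 libraries (adjusted p from 0.00896 to 0.0271, limma), and in the non-tumour region failed without its library of 37 degrees (0.0887) or 6 degrees (0.0726). In the tumour region Errfi1 failed without the normal diet library of 37 degrees (0.119) or 6 degrees (0.0731), Hilpda without that of 37 degrees (0.0808), and Stc1 and Pgf without any 1 library other than the tumour library of 6 degrees (0.0523 to 0.105 and 0.0897 to 0.218). Pdp1 failed there without the tumour or normal diet library of 37 degrees or the normal diet library of 6 degrees (0.0665, 0.0928 and 0.0736). In the non-tumour region Hilpda failed without any 1 of the 4 libraries compared (0.054 to 0.204), and Pdp1 passed only without the tumour library of 6 degrees (0.0477).

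With temperature, Bhlhe40, a repressor of the clock and a HIF target, had 303.1, 91.9 and 158.9 FPKM in tumour, non-tumour and normal diet cells at 37 degrees, against 52.1, 52.2 and 31.2 FPKM at 6 degrees. It rose by 1.88 ± 0.34 (limma, adjusted p = 0.0437), but not without any tumour or normal diet library (adjusted p from 0.098 to 0.131). Cox4i2 rose by 0.61 ± 0.11 (adjusted p = 0.0411), and did not pass without any 1 library (0.0536 to 0.27). Hmox1, the haem oxygenase of macrophages and stressed cells, fell to 29.8, 18.4 and 21.4 FPKM in tumour, non-tumour and normal diet cells at 37 degrees, against 57.4, 42.6 and 34.9 FPKM at 6 degrees. Its change was -0.92 ± 0.11 (limma, adjusted p = 0.0154), and -0.80 without the non-tumour pair, where it did not pass. Hk3, the hexokinase of myeloid cells, fell to 1.10, 0.30 and 0.45 FPKM at 37 degrees, against 4.18, 1.41 and 1.31 FPKM at 6 degrees (-0.96 ± 0.18, adjusted p = 0.0458), and did not pass without any 1 library (0.0724 to 0.221).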

How the data were processed

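RNA sequencing was done on 6 libraries, 1 for each of 3 liver sources at each of 2 isolation temperatures. The deposited values are FPKM, made by the authors with TopHat2 2.1.1, Bowtie2 and Cuffdiff 2.2.1 on mm10, per the submitters' processing notes. For that run, gene models, strand setting and scaling options are not given in the sources. Per the labels' protocols total RNA went into standard Illumina libraries. Counts cannot be read from FPKM, and depth was inferred from the smallest values of each library.

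Entries that shared a symbol were summed. Small RNA genes (1283 symbols) and genes with a mean under 1 FPKM were dropped, and log2(FPKM + 1) was fitted with limma 3.58.1 in R 4.3.3, with additive terms for source and temperature and an intensity trend. This leaves 2 residual degrees of freedom (5.37 with the prior). The pseudocount makes fold changes of low genes smaller than their FPKM ratio. P-values were adjusted by Benjamini-Hochberg over all 11559 genes, with 0.05 as the threshold.

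Gene positions come from GENCODE (GRCm38) for 33 of the 34 genes, since 2 entries carry the symbol Aldoa. Exons of 12 genes overlap a gene on the other strand, whose reads cannot be told apart without stated strand: Slc2a1, Hk1, Gpi1, Pfkm, Pfkp, Tpi1, Gapdh, Hif1a, Bnip3, Ankrd37, Car9 and Ndrg1. Promoter windows come from RefSeq. All 34 genes are named whatever their values, and other pathway genes where they passed, at most 5 per comparison and direction by size. The 34 genes, the lists and the tests were chosen with earlier results of these data known.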

Additional observations from a re-analysis of the deposited data

Results flagged for a closer look

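For 4 of the genes a difference ran in opposite ways in parts of the data, by more than 1 on the log2(FPKM + 1) scale. Each part is a pair of single libraries, and none of these differences was tested.

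For Egln1, the values at 37 minus 6 degrees were 1.4 in normal diet cells and -0.804 in tumour cells, a gap of 2.21. The same 4 libraries give its value in the tumour region minus normal diet as -1.26 at 37 degrees and 0.948 at 6 degrees, again a gap of 2.21. In the non-tumour region minus normal diet, Egln1 had -0.917 at 37 degrees and 0.614 at 6 degrees, a gap of 1.53. For Bnip3, the value at 37 minus 6 degrees was 0.837 in tumour cells and -0.335 in normal diet cells, a gap of 1.17. For Ldhb, the non-tumour region minus normal diet was -0.749 at 37 degrees and 0.257 at 6 degrees, a gap of 1.01. For Ndrg1, the tumour minus the non-tumour region was 0.555 at 37 degrees and -0.677 at 6 degrees, a gap of 1.23.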

How the results depend on the processing

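Under the alternatives run, no fold change of the 31 genes that had an unadjusted p under 0.05, and none of a named pathway gene, changed direction. The medians of the genes followed were near 0 with temperature (0.00655) and between the regions (0.036) and changed sign. With temperature the median was -0.00874 after median-ratio rescaling, -0.00196 after quantile normalization, -0.00335 at a mean of at least 5 FPKM and -0.00809 with no filter. Between the regions it was -0.00651 after quantile normalization and -0.00913 at a mean of at least 5 FPKM. The counts of calls were less stable. Of the 31 genes, 3 passed with temperature, and 1 with a pseudocount of 0.1 FPKM, 1 after quantile normalization, 1 with a mean of at least 5 FPKM, 0 with no source term, and 1 or 0 when the normal diet or the non-tumour pair was left out. In the tumour region against normal diet 8 passed, 5 with the 4 libraries compared alone and 0 without a temperature term. In the non-tumour region 6 passed, and 0 without a temperature term. With no filter on low values limma called 0 genes in every comparison, although 10, 15, 16 and 2 of the 34 genes had an unadjusted p under 0.05 with temperature, in the tumour region against normal diet, in the non-tumour region against normal diet and between the regions, as did 11.6, 15.7, 12.8 and 7.91% of all genes. Of the 31 genes, 11, 12 and 1 had such a p for the 3 source comparisons without a temperature term (17.4, 14.2 and 4.58% of all genes). With temperature 4 had it without a source term (10.7%) and 7 without the non-tumour pair (11.7%). The fit with no filter tested 23063 genes. For the other losses the cause was not tested.

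Leaving out 1 library gave 0 to 2 genes with temperature, 1 to 8 in the tumour region and 0 to 7 in the non-tumour region against normal diet, and 0 to 1 between the regions. A source left with 1 library was then assumed to vary like the others. For temperature such a source adds nothing, so leaving out 1 or the other of its libraries is not a separate check. Over all genes these ranges were 63 to 475, 306 to 980, 0 to 894 and 0 to 165. The 593 calls of all genes with temperature became 0 with no source term, 82 without the non-tumour pair and 330 at a mean of at least 5 FPKM. The 1081 calls in the tumour region became 681 with a mean of at least 5 FPKM, 656 with the 4 libraries alone and 4 without a temperature term. The 643 calls in the non-tumour region became 4 without a temperature term. The 52 calls between the regions became 81 after median-ratio rescaling, 1 (lower) with small RNA genes kept, and 0 with a pseudocount of 0.1 FPKM, at a mean of at least 5 FPKM, with no temperature term or with the 4 libraries alone.

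In the fit, the source and temperature terms already set libraries of 1 source or temperature side by side, and no replicate block was fitted, since each group holds 1 library. Depth limits Aldoc, Egln3 and Car9, whose values are worth few fragments.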
